A study of Mus musculus with 6 samples.

Results

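The genes of respiratory complex I are described here in the mouse heart, across 6 ventricle libraries. They are the gene symbols starting with Nduf that had a mean of at least 1 FPKM over all 6 libraries. FPKM is the number of fragments per kilobase of gene, scaled to the mapped fragments of the library. Of the 45 such symbols in the deposited table, 44 met this rule, out of 21989 symbols in all and 12269 with a mean of at least 1 FPKM. The lowest members were Ndufs3 with a mean of 2.69 FPKM and Ndufaf6 with 4.36 FPKM. Ndufa7, a matrix arm subunit with a mean of 0.577 FPKM, was the symbol left out. By known role, 35 members are structural subunits of complex I and 7 are assembly factors. Ndufa4 belongs to complex IV despite its name, and its paralog Ndufa4l2 was grouped with it.

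RNA sequencing of polyadenylated RNA was done on left ventricles of male SPF-grade C57BL/6 mice. The ISO group (3 libraries) received ISO at 10 mg/kg/d under the skin for 3 weeks, which the labels call a heart failure model, and the saline group (3 libraries, titled sham) the same volume of normal saline. ISO is commonly short for isoproterenol, a drug that stimulates beta-adrenergic receptors. The labels speak of biological repeats and name no animals, so a p-value here reflects how far these samples spread, which may be technical.

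Complex I oxidises NADH in the mitochondrial matrix, passes the electrons along a chain of iron-sulfur clusters to ubiquinone and pumps protons across the inner membrane. Its core subunits carry out catalysis, while accessory subunits surround the matrix arm and the membrane arm, and assembly factors help to build the enzyme without staying in it. Heart muscle is among the tissues richest in this enzyme. The core subunits of the membrane arm are encoded by mitochondrial DNA and were not analysed here.

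The libraries differed in ways that bear on these genes. Library totals recovered from the FPKM steps ran from 2776152 reads (saline 3) to 9862363 reads (saline 1). Across the 44 members, saline 3 had a Pearson r of 0.924 to 0.955 with the other libraries, and ISO 1 with ISO 2 had 0.997. Myl7, the atrial myosin light chain, was above its ventricular counterpart Myl2 in all libraries but saline 3, with ratios of Myl2 to Myl7 of 0.154, 0.0328 and 1.22 (saline 1 to 3) against 0.172, 0.171 and 0.0168 (ISO 1 to 3). Both are markers of a heart chamber, so by this ratio 5 of the 6 libraries labelled left ventricle held more atrial than ventricular light chain mRNA. Scgb1a1, a secretory protein of the airway, reached 201 FPKM in saline 3 and 182 FPKM in ISO 3, against 0.869 to 13.2 FPKM elsewhere. Results that rest on saline 3 and ISO 3 are therefore given with and without them.

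Complex I mRNAs were lower in the ISO libraries for 41 of the 44 members, with a median log2 fold change of -0.57 (ISO minus saline, on log2(FPKM + 1)), but no single member passed the test. The median over all 12269 genes tested was 0.20, and 31.9% of them were lower in ISO. With limma and Benjamini-Hochberg adjustment, 0 members had an adjusted p under 0.05 (smallest 0.699), as did 0% of all genes, and limma-voom on the recovered reads called 0 as well. An unadjusted p under 0.05 was found for 12 members, all lower in ISO (27.3%), against 1.39% of all genes in that direction and 4.92% in the other. In 18 members (40.9%) every ISO library lay below every saline library, against 3.72% of all genes. None of the members had the groups apart in the opposite direction, where 12.8% of all genes did. In bulk tissue, fewer cells of a type and less RNA per cell cannot be told apart.

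**Figure D1:**
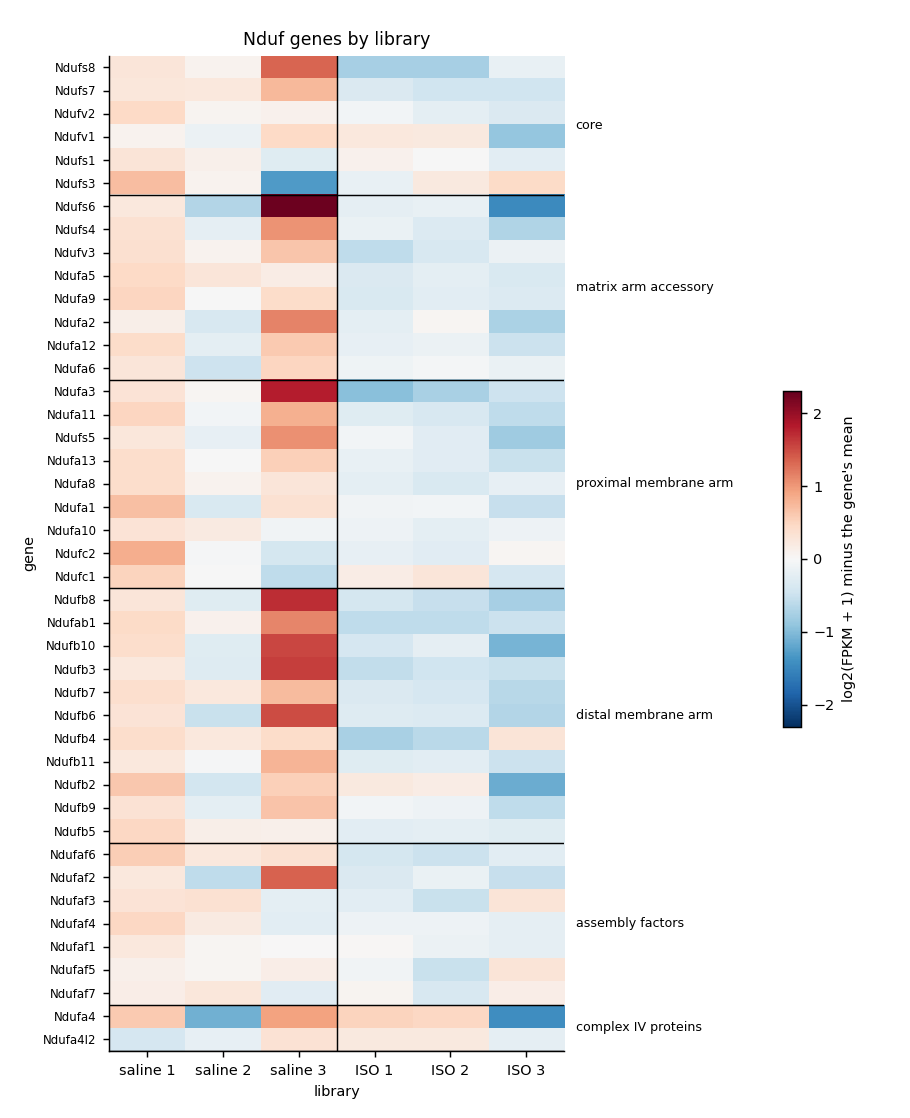
Level of 43 of the 44 genes (rows, grouped by role) in each library (columns), as log2(FPKM + 1) minus the gene's mean over the 6 libraries, red above and blue below it. Most rows are red in saline 1 and saline 3 and blue in the ISO libraries, and the darkest red cells lie in saline 3, such as Ndufs6 at 1375 FPKM.

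As a share of the summed FPKM, the 44 members made up 3.60%, 2.83% and 4.12% of saline 1 to 3, against 2.50%, 2.48% and 1.99% of ISO 1 to 3. The groups did not overlap in this share, with saline 2 the lowest saline library and ISO 1 the highest ISO library. The median member had 303, 217 and 333 FPKM in saline 1 to 3, against 205, 202 and 163 FPKM in ISO 1 to 3. Without saline 3 the median log2 fold change of the members was -0.45 and that of all genes 0.06. Without both saline 3 and ISO 3 it was -0.37 against 0.04, and 37 members (84.1%) were lower against 44.2% of all genes. Quantile normalization left 41 members lower (93.2%), against 50.4% of all genes. Median-of-ratios scaling left 43 lower (97.7%), against 48.3% of all genes. It moved the median of all genes to 0.02 and that of the members to -0.79, so relative to all genes the members stood at -0.81 with it and at -0.77 without it. When libraries were weighted by their quality, saline 3 had the smallest weight (0.077), and limma then called 14 members lower in ISO (31.8%, adjusted p under 0.05) against 2.01% of all genes. The weights were 3.081 and 1.042 for saline 1 and 2, and 1.634, 5.498 and 0.449 for ISO 1 to 3. The calls with these weights therefore rested mainly on 1 library per group, saline 1 and ISO 2. No member was called higher with these weights, against 4.25% of all genes.

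Members differed in abundance more than in direction. Per length, 30 members were above 100 FPKM in every library, and the median member had a mean of 250 FPKM against 8.90 FPKM for all genes tested. The highest means belonged to Ndufa3 (1258 FPKM), Ndufb7 (1127 FPKM) and Ndufa5 (1086 FPKM), which are accessory subunits. The members were short, with a median length of 924 bases behind the FPKM against 3431 bases, and 23 of them were under 1000 bases, as were 5.71% of all genes tested. They lie on 16 chromosomes, with 2 on the X.

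Promoter windows are shown for the members with the smallest p that held a YY1 or GABPA match, since these genes were all lower in ISO. RefSeq windows on GRCm38.p6 (250 bases before to 50 after the start, 1 window per gene) were found for 38 of the 44 members. They were searched on both strands for letters recognised by factors that are known to act on nuclear genes of mitochondrial proteins. In capitals is the match, which is GABPA (CCGGAAG) for Ndufb7, YY1 (AAGATGG) for Ndufs7 and Ndufa3, and GABPA on the opposite strand for Ndufs8. Only the Ndufb7 match lies before the RefSeq start, at positions -20 to -14. In GENCODE vM21 on GRCm38, however, the Ndufb7 gene starts at chr8:83566671, so by that annotation this match lies inside the gene. The matches of the other genes lie after the RefSeq start, in transcribed sequence, at 25 to 31 (Ndufs7), 23 to 29 (Ndufa3) and 16 to 22 (Ndufs8). The Ndufs7 piece lies wholly after the start. The pieces shown are cut at the match and lie at chr8:83566715-83566744 (plus strand), chr10:80249450-80249479 (plus), chr7:3617223-3617401 (plus) and chr19:3912753-3912924 (minus).
Ndufb7: acccccgccgcagcctagatgacCCGGAAG
Ndufs7: gaggttgtctgaaggccgaggccAAGATGG
Ndufa3: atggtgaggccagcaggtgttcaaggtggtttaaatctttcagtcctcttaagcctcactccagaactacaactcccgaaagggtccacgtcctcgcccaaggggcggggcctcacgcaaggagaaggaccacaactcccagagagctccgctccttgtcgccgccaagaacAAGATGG
Ndufs8: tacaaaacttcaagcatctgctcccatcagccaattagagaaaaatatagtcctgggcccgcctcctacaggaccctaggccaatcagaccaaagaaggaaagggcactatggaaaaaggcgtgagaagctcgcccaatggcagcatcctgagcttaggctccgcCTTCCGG

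The YY1 letters were present in 7 of the 38 windows (18.4%), against 6.48% of all 27025 promoter windows and 7.30% of those of genes tested. The NRF1 letters TGCGCA were present in 11 (28.9%), against 8.06% and 14.2%. The GABPA letters were present in 5 (13.2%), against 9.12% and 17.6%, and the ERR letters AAGGTCA in 3 (7.89%), against 4.66% and 3.27%. Matches of different motifs shared bases in 0 of these windows. Members with the letters had median log2 fold changes of -0.71 (NRF1), -0.86 (GABPA), -0.83 (YY1) and -0.71 (ERR), and those without had -0.51, -0.61, -0.51 and -0.61. The differences between these medians were not tested. Some members had the letters of different motifs, such as Ndufb8 with NRF1 and YY1. A match describes letters in a window and is no evidence of binding.

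The nuclear core subunits were lower in ISO for 6 of 7 genes, with a median log2 fold change of -0.27, and the groups did not overlap for Ndufs7, Ndufs8 and Ndufv2. The class median was -0.03 without ISO 3, -0.46 without ISO 1 and -0.36 without both saline 3 and ISO 3. Ndufs7, which holds the last iron-sulfur cluster before ubiquinone (chr10:80249121-80256794), measured 322, 320 and 452 FPKM in saline 1 to 3, against 214, 196 and 196 FPKM in ISO 1 to 3 (values of other genes follow the same order of libraries). All 3 ISO libraries lay close together and below the saline libraries. Its mean was 1.81-fold higher in saline (mean ± SD 365 ± 75.9 against 202 ± 10.7 FPKM, 3 libraries each), with a log2 fold change of -0.83 (SE 0.23, unadjusted p = 0.00894, adjusted p = 0.699 with limma). It lay between -0.91 and -0.67 with any 1 library left out. Ndufs8, another iron-sulfur subunit (chr19:3908863-3912774), was at 329, 286 and 689 FPKM in saline and 160, 160 and 242 FPKM in ISO. Saline 3 was 2.24 times the mean of saline 1 and 2, and the log2 fold change of -1.12 (SE 0.38) became -0.74 without it. Ndufv2, an iron-sulfur subunit at the NADH end, was at 371, 281 and 287 FPKM in saline and 259, 229 and 213 FPKM in ISO, with a log2 fold change of -0.41 (SE 0.23).

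Ndufv1, Ndufs1 and Ndufs3 had groups that overlapped. Ndufv1, which binds the flavin that accepts electrons from NADH, was at 191, 164 and 249 FPKM in saline and 215, 212 and 97.3 FPKM in ISO. ISO 1 and ISO 2 lay within the saline range and ISO 3 was at 0.46 times their mean, so the log2 fold change of -0.27 (SE 0.36) turned to 0.11 without ISO 3. Ndufs1, the largest subunit, was at 71.3, 63.0 and 47.5 FPKM in saline and 62.0, 57.7 and 49.0 FPKM in ISO. Its ISO values lay inside the range of the saline values (log2 fold change -0.09, SE 0.24, and -0.26 without saline 3).

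Ndufs3, part of the module that reduces ubiquinone, was the least abundant member. It was at 4.53, 2.61 and 0.383 FPKM in saline and 2.02, 2.99 and 3.60 FPKM in ISO, from 84, 31, 2, 28, 29 and 38 recovered reads. In saline 3 the exact Poisson 95% interval was 0.0464 to 1.38 FPKM (counting error only), which lies below the interval of saline 1, 3.61 to 5.61 FPKM. Its log2 fold change of 0.33 (SE 0.52) became -0.23 without saline 3. The other core subunits had means of 58.4 FPKM or more. In GENCODE vM21 on GRCm38, Ndufs3 (chr2:90894634-90904827) shares 88 exonic bases, 4.04% of its total, with Kbtbd4 on the other strand. The gene models and strand setting of the counting are not given in the sources used here, so this level may not be that of the whole gene.

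**Figure D2:**
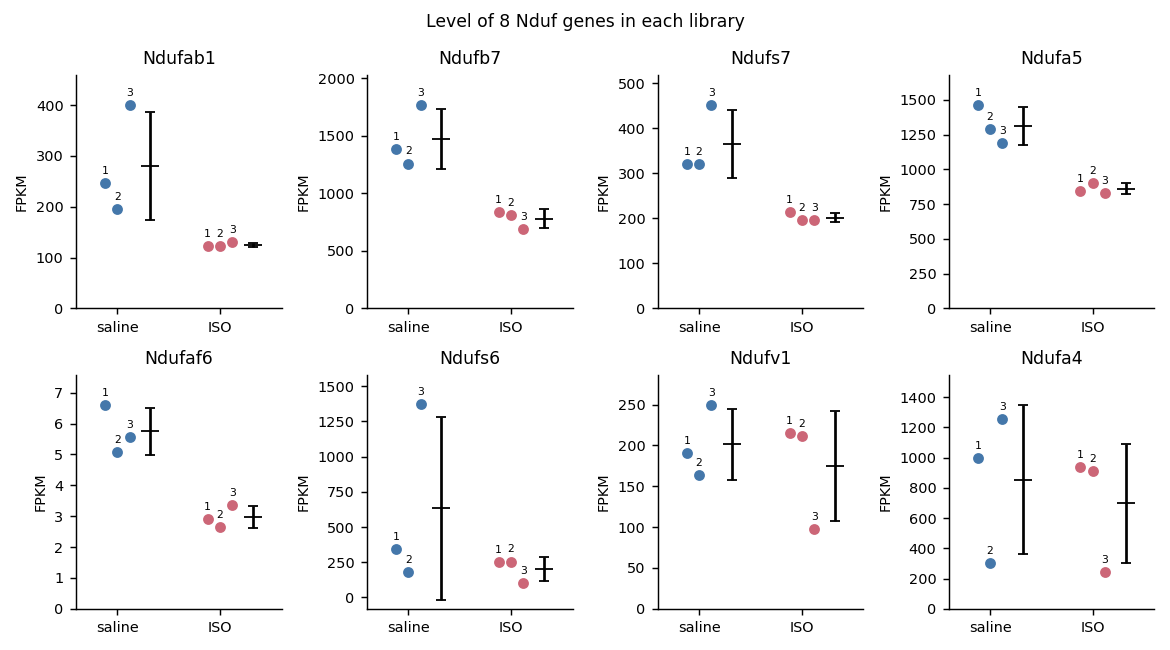
FPKM of 8 genes in each library (points, numbered by library; y axes linear), with the mean and SD of each group (n = 3) beside the points. The groups are apart for Ndufab1, Ndufb7, Ndufs7, Ndufa5 and Ndufaf6, saline 3 alone is high for Ndufs6, and ISO 3 is low for Ndufv1 and Ndufa4.

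The matrix arm accessory subunits were lower in ISO for all 8 members, with a median log2 fold change of -0.61, and the groups did not overlap for Ndufa5, Ndufa9 and Ndufv3. The class median was -0.43 without saline 3 and -0.28 without both saline 3 and ISO 3. Ndufa5, which sits on the module that reduces ubiquinone (chr6:24518666-24528013), was at 1462, 1288 and 1188 FPKM in saline and 845, 904 and 829 FPKM in ISO. Saline 3 was the lowest saline library here, so the difference did not rest on it: the log2 fold change was -0.61 (SE 0.23, unadjusted p = 0.0301, adjusted p = 0.699 with limma) and -0.68 without saline 3. Ndufa9, which holds a nucleotide cofactor and lies near the ubiquinone site, was at 276, 196 and 264 FPKM in saline and 153, 166 and 157 FPKM in ISO. Ndufv3, a small subunit at the NADH end, was at 343, 282 and 415 FPKM in saline and 179, 208 and 243 FPKM in ISO. Both had the ISO libraries below the saline libraries, with log2 fold changes of -0.61 (SE 0.23) and -0.71 (SE 0.25).

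Ndufs6 and Ndufs4 showed how far saline 3 can set a value, and were named after their values were seen. Ndufs6, a zinc-binding subunit added late in assembly, was at 341, 181 and 1375 FPKM in saline and 250, 255 and 104 FPKM in ISO. Saline 3 was 5.27 times the mean of saline 1 and 2, and saline 2 lay below ISO 1 and ISO 2. The log2 fold change was -1.22 (SE 0.74), -0.40 without saline 3 and 0.02 without both saline 3 and ISO 3. Ndufs4, a subunit whose loss in mice causes a disease like Leigh syndrome, was at 94.5, 63.8 and 152 FPKM in saline and 66.1, 59.2 and 45.5 FPKM in ISO, with a log2 fold change of -0.78 (SE 0.35) and -0.46 without saline 3. The other members of this class, Ndufa2, Ndufa6 and Ndufa12, overlapped between the groups, with log2 fold changes of -0.60, -0.20 and -0.54. Without saline 3 these were -0.18, -0.00 and -0.38, and without ISO 3 as well they were 0.03, 0.02 and -0.26.

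The accessory subunits of the proximal membrane arm were lower in ISO for 8 of 9 members (median -0.51), and 5 had groups that did not overlap: Ndufa3, Ndufa8, Ndufa10, Ndufa11 and Ndufa13. Ndufa3, a small membrane subunit and the most abundant member per length (chr7:3617373-3620327), was at 1230, 1021 and 3481 FPKM in saline and 509, 592 and 713 FPKM in ISO. Saline 3 stood far above all others, and every ISO library lay below saline 2. The log2 fold change was -1.45 (SE 0.47, unadjusted p = 0.0179, adjusted p = 0.699 with limma), the largest of the members in size, and -0.90 without saline 3. Ndufa11, which contacts the membrane arm core from the side (chr17:56717767-56722141), was at 166, 113 and 207 FPKM in saline and 96.6, 90.6 and 77.9 FPKM in ISO. Its log2 fold change was -0.83 (SE 0.28, unadjusted p = 0.0193, adjusted p = 0.699 with limma) and -0.63 without saline 3. Ndufa13, a subunit also linked to cell death signalling, averaged 277 ± 53.6 FPKM (SD) in saline against 178 ± 22.3 FPKM in ISO, and 30% of its exonic bases in GENCODE vM21 are shared with Tssk6 on the other strand.

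Ndufa8 and Ndufa10 had smaller differences that did not rest on saline 3. Ndufa8, a subunit with paired cysteines on the intermembrane side, was at 617, 494 and 567 FPKM in saline and 402, 366 and 409 FPKM in ISO (log2 fold change -0.51, -0.49 without saline 3). Ndufa10, which resembles nucleoside kinases, was at 308, 287 and 234 FPKM in saline and 229, 212 and 229 FPKM in ISO (-0.30, and -0.41 without saline 3). The Ndufc subunits behaved otherwise in saline 3, where both were lowest. Ndufc1 was at 553, 383 and 256 FPKM in saline and 436, 468 and 295 FPKM in ISO, with a log2 fold change of 0.05 (SE 0.35) that turned to -0.23 without saline 3. Ndufc2 was at 289, 158 and 122 FPKM in saline and 142, 135 and 166 FPKM in ISO, so that saline 1 alone stood out, and its log2 fold change of -0.27 (SE 0.34) turned to 0.08 without saline 1.

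The accessory subunits of the distal membrane arm were lower in ISO for all 11 members, with a median log2 fold change of -0.86, and 6 had groups that did not overlap: Ndufab1, Ndufb3, Ndufb5, Ndufb7, Ndufb8 and Ndufb11. The class median was -0.55 without saline 3 and -0.46 without both saline 3 and ISO 3. The differences between classes were not tested. Ndufab1, the mitochondrial acyl carrier protein, which also serves fatty acid and lipoic acid synthesis (chr7:122085403-122101886), was at 247, 195 and 400 FPKM in saline and 122, 122 and 130 FPKM in ISO. The ISO libraries spanned only 122 to 130 FPKM, well under saline 2. The mean was 2.25-fold higher in saline, and the log2 fold change of -1.10 (SE 0.30, unadjusted p = 0.00764, adjusted p = 0.699 with limma) came to -0.81 without saline 3 and to -0.84 when ISO 3 was left out too. This was the smallest unadjusted p among the members.

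Ndufb7, an intermembrane subunit with paired cysteines (chr8:83566671-83571626), was at 1389, 1259 and 1767 FPKM in saline and 842, 815 and 687 FPKM in ISO. The gap between the groups was wider than the range of the ISO libraries, and the mean was 1.88-fold higher in saline. Its log2 fold change was -0.90 (SE 0.25, unadjusted p = 0.00807, adjusted p = 0.699 with limma) and lay between -1.01 and -0.76 with any 1 library left out. Ndufb5, a single-pass membrane subunit, was at 274, 215 and 213 FPKM in saline and 165, 168 and 161 FPKM in ISO (log2 fold change -0.49, and -0.55 without saline 3). Ndufb11, on the X chromosome, was at 492, 410 and 720 FPKM in saline and 342, 353 and 297 FPKM in ISO (-0.67, and -0.45 without saline 3). Ndufb4 stood apart from its class in ISO 3: it was at 565, 502 and 570 FPKM in saline and 253, 277 and 521 FPKM in ISO, and without ISO 3 its log2 fold change went from -0.71 to -1.04.

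Ndufb3, Ndufb6, Ndufb8 and Ndufb10 had saline 3 at 2.68 to 3.18 times the mean of saline 1 and 2. Ndufb8, for example, was at 236, 159 and 628 FPKM in saline and 147, 134 and 114 FPKM in ISO, where saline 2 and ISO 1 nearly met. Its log2 fold change of -1.12 (SE 0.49) became -0.56 without saline 3. Those of Ndufb3, Ndufb6 and Ndufb10 went from -1.02, -0.86 and -1.10 to -0.48, -0.33 and -0.62. In all, 16 members (36.4%) were over 1.5 times the mean of saline 1 and 2 in saline 3, against 19.3% of all genes, and 5 (11.4%) were under it by over 1.5 times, against 46.2%. Across the 44 members, the log2 ratio of saline 3 to saline 1 and 2 had a Pearson r of -0.39 with the log2 of gene length, a description of genes that share these libraries.

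**Figure D3:**
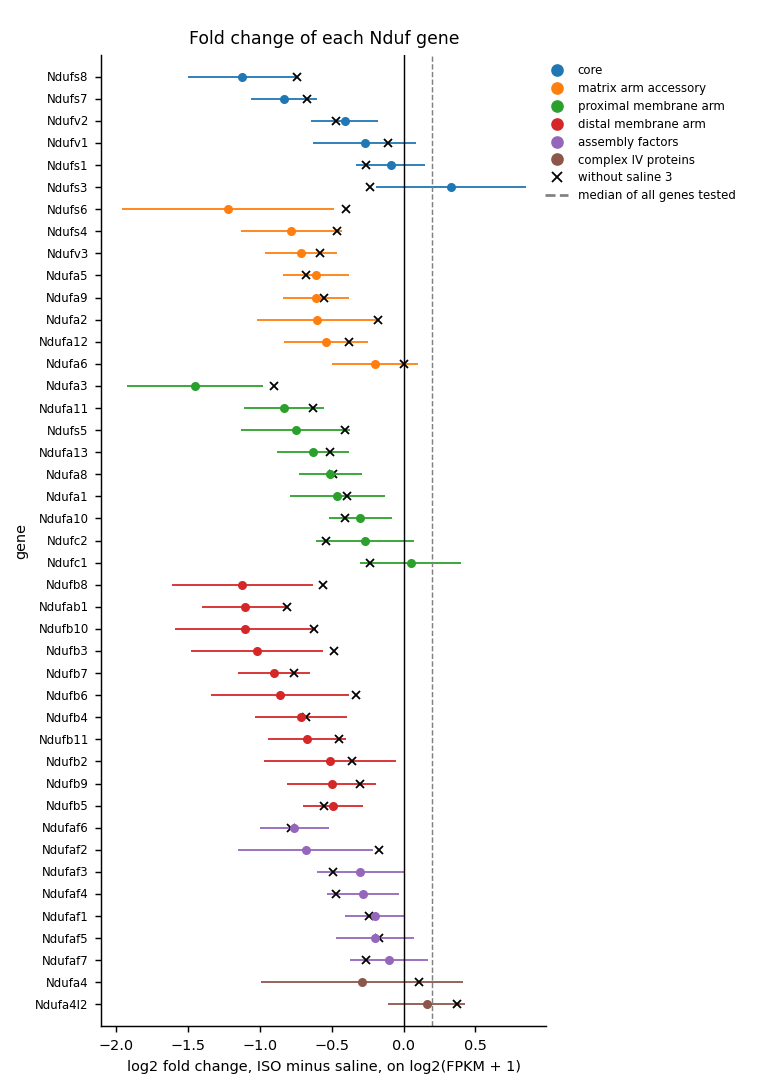
Log2 fold change (ISO minus saline, x axis) of 43 of the 44 genes (y axis), with its SE as a bar and coloured by role. The crosses give the value without saline 3 and the dashed line the median of all genes tested (0.20). Of the 43 points 40 lie left of 0, and the crosses of most subunits with the largest differences lie nearer to 0.

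The Nduf-named assembly factors were 7 low-abundance members, all lower in ISO, with a median log2 fold change of -0.28, and 1 of them had groups that did not overlap. Ndufaf6, needed early in the building of the enzyme (chr4:11051045-11076205), was at 6.59, 5.09 and 5.55 FPKM in saline and 2.90, 2.66 and 3.35 FPKM in ISO, from 32 to 152 reads per library. Every ISO library lay below every saline library, although the exact Poisson 95% interval of ISO 3 (2.44 to 4.50 FPKM) met those of saline 2 and of saline 3 (3.89 to 7.68 FPKM). The log2 fold change of -0.76 (SE 0.24, unadjusted p = 0.0155, adjusted p = 0.699 with limma) was -0.78 without saline 3. Ndufaf3 and Ndufaf4, which act together on the module that reduces ubiquinone, were at 21.2, 21.8 and 14.2 FPKM and at 25.8, 21.2 and 15.4 FPKM in saline. In ISO they were at 14.1, 11.5 and 21.0 FPKM and at 16.9, 16.9 and 15.8 FPKM. In both genes saline 3 was lowest among the saline libraries, and without it the log2 fold changes went from -0.30 and -0.28 to -0.49 and -0.47.

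Ndufaf1, which builds the membrane arm with Ecsit and Acad9, was at 18.1, 15.5 and 15.2 FPKM in saline and 15.4, 13.7 and 13.0 FPKM in ISO (log2 fold change -0.20, SE 0.21). Ndufaf2, a paralog of Ndufa12 that acts late in assembly, was at 24.8, 13.7 and 55.3 FPKM in saline and 16.4, 18.7 and 14.1 FPKM in ISO. Its log2 fold change of -0.68 (SE 0.47) became -0.17 without saline 3, and 65.6% of its exonic bases are shared with a long noncoding RNA on the other strand, B230220B15Rik. Ndufaf5, which hydroxylates Ndufs7, averaged 7.88 ± 0.326 FPKM (SD) in saline against 6.94 ± 2.17 FPKM in ISO. Ndufaf7, a protein methyltransferase, had 11.9, 13.0 and 8.65 FPKM in saline and 11.1, 7.99 and 12.0 FPKM in ISO. For both enzymes the groups overlapped.

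The 13 tested assembly factors with other names had no shared direction: 9 were lower in ISO and 4 higher, with a median log2 fold change of -0.06. None passed the test, and the groups did not overlap for 2, Ecsit and Tmem126a. Ecsit, the partner of Ndufaf1, was at 55.8, 54.3 and 65.4 FPKM in saline and 41.5, 38.2 and 39.3 FPKM in ISO (log2 fold change -0.55, SE 0.20). Tmem126a, which acts on the distal membrane arm, was at 58.6, 60.9 and 95.9 FPKM and at 53.6, 53.4 and 52.8 FPKM. Structural subunits exceeded the Nduf-named assembly factors by 4.39, 4.14 and 4.78 in mean log2(FPKM + 1) in saline 1 to 3, against 4.21, 4.39 and 3.89 in ISO 1 to 3. This distance overlapped between the groups.

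Ndufa4, a protein of complex IV, and its paralog Ndufa4l2 had groups that overlapped, as did many complex I subunits. Ndufa4 was at 1000, 305 and 1256 FPKM in saline and 940, 913 and 245 FPKM in ISO. Saline 2 and ISO 3 were low and the other 4 libraries high, so the log2 fold change of -0.29 (SE 0.70) turned to 0.35 without ISO 3 and to 0.11 without saline 3. Ndufa4l2, which low oxygen induces in many cells, was at 20.7, 24.1 and 35.0 FPKM in saline and 32.1, 32.4 and 23.7 FPKM in ISO (log2 fold change 0.16, SE 0.27, and -0.05 with median-of-ratios scaling). Per length, it was far below its paralog in every library.

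The pattern of Ndufa4 recurred in other members. In 11 of the 44 members, namely Ndufa1, Ndufa2, Ndufa4, Ndufa6, Ndufa12, Ndufaf2, Ndufb2, Ndufb6, Ndufb9, Ndufs6 and Ndufv1, saline 2 and ISO 3 were the lowest libraries, as in 5.05% of all genes tested. Ndufb2, a small distal subunit, was at 356, 173 and 340 FPKM in saline and 269, 259 and 104 FPKM in ISO, so that 1 library of each group lay apart from the rest. Saline 2 and ISO 3 also had the lowest ratios of Myl2 to Myl7. Their Pearson r across the members was 0.991, where pairs of libraries without saline 3 ran from 0.965 to 0.997. The part of the chamber markers in these levels was not tested.

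Markers of heart muscle as a whole were lower in ISO like the complex I genes, and erythroid, macrophage and fibroblast markers were higher. The cardiomyocyte list was lower in ISO for 14 of 14 genes, with a median log2 fold change of -0.65 and a summed level of 33271 to 46779 FPKM in saline and 14236 to 24416 FPKM in ISO. None of its genes was at 0 in any library. Erythroid markers were higher for 7 of 7 genes (summed 3254 to 6704 FPKM in saline, 14092 to 29592 FPKM in ISO), macrophage markers for 8 of 8 (294 to 605 and 564 to 841 FPKM) and fibroblast markers for 7 of 8 (917 to 1268 and 1818 to 2104 FPKM). Atrial markers were higher for 5 of 6 genes with a median of 0.12, which was -0.52 without saline 3 and ISO 3, and ventricular markers were lower for 3 of 3, with a median of -1.49 that turned to 0.76. Mural markers were higher for 4 of 6 genes (median 0.05), endothelial markers for 8 of 8 (0.61) and adipocyte markers for 1 of 5 (-0.22). Without saline 3 the mural, endothelial and adipocyte medians were 0.22, 0.11 and -0.41. With ISO 3 left out as well they were 0.22, 0.22 and -1.23. Without saline 3 and ISO 3 the cardiomyocyte median was -0.14, while that of the members was -0.37. The members' mean log2(FPKM + 1) minus that of the cardiomyocyte list came to -2.17, -2.34 and -2.03 in saline 1 to 3, against -2.44, -2.35 and -1.43 in ISO 1 to 3. The groups overlapped through ISO 3 alone, which was the highest of all libraries. ISO 1 and ISO 2 lay below every saline library, though ISO 2 nearly met saline 2. The part of cell composition in the levels of the complex I genes was not tested.

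**Figure D4:**
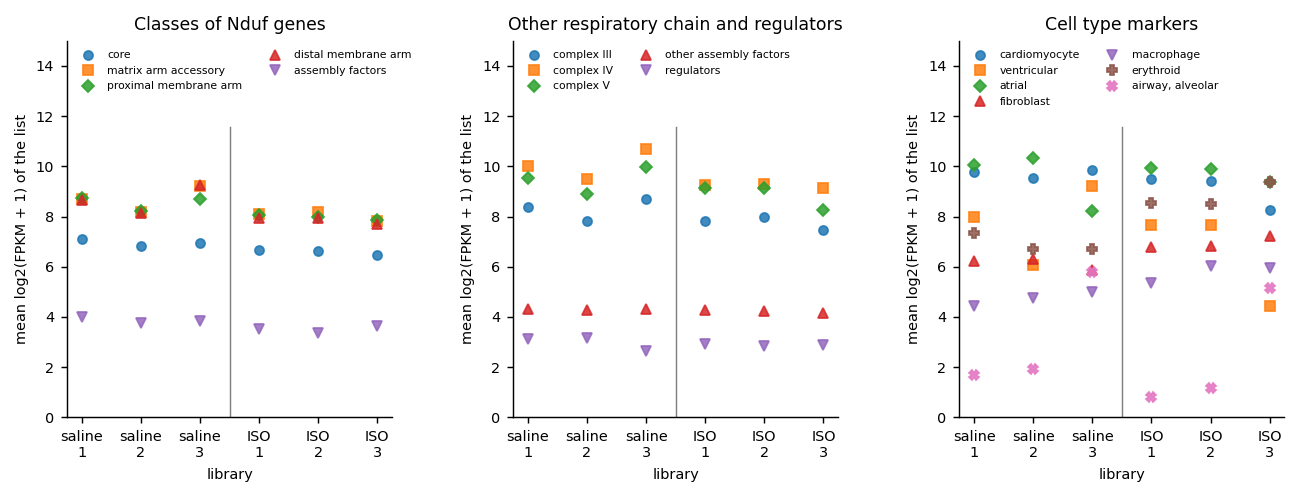
Mean log2(FPKM + 1) of each gene list (y axis) in each library (x axis), for the classes of Nduf genes, for other parts of the respiratory chain and for cell type markers. The complex I classes and complexes III to V are lower in ISO 3 than in saline 1 and saline 3, and the ventricular markers are lowest in ISO 3.

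The nuclear subunits of the other respiratory complexes were set beside complex I. Complex III was lower in ISO for 8 of 9 genes (median -0.58), complex IV for 13 of 13 (-0.80) and complex V for 15 of 15 (-0.58), and none of these genes passed the test. Without saline 3 and ISO 3 the medians were -0.02 for complex III, -0.49 for complex IV and -0.03 for complex V, against -0.37 for the complex I members. No difference between complexes was tested. Uqcrq, a complex III subunit, averaged 727 ± 68.2 FPKM (SD) in saline against 429 ± 62.0 FPKM in ISO, Cox7c of complex IV at 1673 ± 663 and 686 ± 177 FPKM, and Atp5h of complex V at 865 ± 70.7 and 544 ± 19.9 FPKM. Succinate dehydrogenase and the other enzymes that feed NADH or ubiquinone were lower for 6 of 9 genes (median -0.24, and 0.04 without saline 3 and ISO 3). Among them, Sdhb was at 546, 378 and 488 FPKM in saline and 303, 303 and 296 FPKM in ISO.

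Other lists of mitochondrial genes were described in the same way. The 12 general proteins of the mitochondrial membranes and matrix, such as porins and import receptors, were lower for 8 genes with a median of -0.05 (-0.17 without saline 3), and ubiquinone synthesis for 8 of 11 with a median of -0.11. The proteases that degrade complex I subunits in the mitochondria were lower for 1 of 6, with a median of 0.27, where the exception Clpp averaged 68.6 ± 3.98 FPKM (SD) in saline against 55.2 ± 6.94 FPKM in ISO. The transcriptional regulators of mitochondrial genes were lower for 10 of 16, and none passed the test. Their median of -0.06 was -0.30 without saline 3 and -0.19 without saline 3 and ISO 3. Ppargc1b, a coactivator of these genes, was at 3.83, 4.50 and 19.3 FPKM in saline and 2.19, 2.08 and 3.31 FPKM in ISO, the ISO libraries all below the saline libraries. The factors whose motif letters were searched in the promoters were named too. Nrf1 and Yy1 were at 2.19, 2.86 and 12.0 FPKM and at 20.2, 14.5 and 7.89 FPKM in saline. In ISO they were at 2.95, 2.56 and 2.56 FPKM and at 16.2, 13.9 and 21.4 FPKM. Gabpa was at 8.82, 8.85 and 2.15 FPKM in saline and 9.75, 11.1 and 8.36 FPKM in ISO, with a log2 fold change of 0.67 (0.12 without saline 3). The ERR genes Esrra, Esrrb and Esrrg had log2 fold changes of -0.09, -0.51 and -0.98. Without saline 3 these were -0.40, -0.81 and -0.27, and without saline 3 and ISO 3 they were -0.15, -0.59 and -0.10. Esrrg was at 12.8 FPKM in saline 3, against 1.07 to 2.49 FPKM elsewhere. All of these factors overlapped between the groups.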

How the data were processed

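Polyadenylated RNA of 6 left ventricle samples was sequenced, and samples were grouped by their labels. The authors deposited FPKM values for 21989 gene symbols, with a column for each library. The tools named in the submitters' processing notes, in no order and with no role, are HISAT2 2.1.0, Cufflinks 2.2.1, HTSeq 0.7.2, DESeq, fastp 0.20.0 and CASAVA 1.8, and the build is GRCm38. The annotation release and strand setting are not given in the sources used here, so genes with overlapping exons are uncertain.

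FPKM divides by library total, so abundant genes that are higher lower all others. A gene's FPKM values step by what 1 read is worth, and these steps gave whole reads (within 0.0001) for 100% of the 16816 genes found in 2 or more libraries. The library totals were 9862363, 6307039 and 2776152 reads in saline 1 to 3 and 7378782, 5154283 and 5614336 reads in ISO 1 to 3. Of the members, all but Ndufs3 had at least 32 reads in every library. Exact Poisson intervals (95%) hold counting error only.

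The test ran on log2(FPKM + 1) with limma 3.58.1 in R 4.3.3 (trend of variance with level, no covariate besides group) over the 12269 genes with a mean of at least 1 FPKM, with Benjamini-Hochberg adjustment at 0.05. This scale understates the change of low genes. The fit and the recovery of reads were tested on simulated data. Tables were made with pandas 2.3.3, scipy 1.17.1 and numpy 2.4.6 in Python 3.11.15.

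The members and lists were chosen with earlier results of these data known, so no list was given a test. Named by rule were the core subunits, the assembly factors, the 6 members with the smallest p in each direction, the 3 most and 3 least abundant, Ndufa4, Ndufa4l2, members whose fold change turned sign and up to 2 genes of smallest p in other lists. Other members were named after their values were seen. The values of 1 member are not reported here, and it is counted in the totals. Gene positions and exon overlaps are from GENCODE vM21 on GRCm38, and promoters from RefSeq on GRCm38.p6.

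Alternatives were another pseudocount (0.1), no filter and a mean of at least 5 FPKM, median-of-ratios scaling, quantile normalization, sample quality weights, a replicate block, limma-voom on the recovered reads and each library left out. The fit without saline 3 and ISO 3 was added after seeing the data. The closest pair of libraries, ISO 1 and ISO 2, differed by 4.49 times the chi-square that sampling gives over the members, and all libraries were counted as separate samples.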

Additional observations from a re-analysis of the deposited data

How the results depend on the processing

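Over 15 alternatives, the number of members lower in ISO lay between 37 and 43 and the median log2 fold change between -0.79 and -0.37. No member passed limma's threshold except with sample quality weights, where 14 members and 768 genes passed. Those weights were largest for saline 1 (3.081) and ISO 2 (5.498), so that fit rested mainly on these libraries. With 1 library left out, 0 to 16 genes passed (16 without ISO 1, all higher) and 0 members. The members whose groups did not overlap numbered 17 (mean of at least 5 FPKM) to 32 (without saline 2), and 18 to 32 with 1 library left out. Groups of fewer libraries separate more easily, and the share over all genes was not taken for these counts. They can therefore not be set against the 3.72% of all genes found with all 6 libraries. Without saline 3 and ISO 3, 2 members had the groups apart with ISO higher. By the deviations from group means over genes, same-numbered libraries showed no sign of pairing (r of 0.013, -0.148 and -0.025). Libraries of different numbers had r of -0.031 to 0.082. Values near 0 cannot exclude that samples were paired. The fit with the replicate block called 0 genes and 0 members, with a median of -0.57.

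Median-of-ratios scaling moved the class medians to -0.48 (core), -0.72 (proximal membrane arm) and -0.49 (assembly factors). That of the assembly factors was -0.47 with quantile normalization and -0.46 with quality weights. With 1 library left out, the core median lay between -0.46 (without ISO 1) and -0.03 (without ISO 3), and the proximal membrane arm median between -0.75 (without saline 2) and -0.43.

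Of 343 fold changes of 23 named members, 320 kept their direction. Median-of-ratios scaling turned Ndufa4l2 to -0.05 and Ndufc1 to -0.16. Quality weights turned Ndufa4 to 0.18, Ndufc1 to -0.15, Ndufs3 to -0.36 and Ndufv1 to 0.14. Leaving out both saline 3 and ISO 3 turned Ndufa4 to 0.75, Ndufc1 to -0.03, Ndufs3 to -0.36 and Ndufv1 to 0.27. With 1 library left out, these members took both signs: Ndufa4 from -0.91 to 0.35 (without ISO 3; 0.11 without saline 3), Ndufs3 from -0.23 (without saline 3) to 0.77, Ndufv1 from -0.46 to 0.11 (without ISO 3), Ndufs1 from -0.26 to 0.03 (without saline 1; 0.00 without ISO 3), Ndufc2 from -0.54 to 0.08 (without saline 1), Ndufaf5 from -0.39 to 0.01 (without ISO 2) and Ndufaf7 from -0.26 to 0.06 (without ISO 2; 0.01 without saline 2). Ndufc1 ran from -0.23 (without saline 3; -0.03 without ISO 1 and -0.08 without ISO 2) to 0.32. These changes come from fewer samples or another scaling or weighting, and no further cause was tested. Depth limits the precision of Ndufs3 (2 reads in saline 3) and of the assembly factors with few reads, such as Ndufaf6 and Ndufaf2 (32 reads in their lowest libraries).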

Other observations

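A pair of complex I genes fall outside the rule. Ndufa7 had 0.654, 0.495 and 0.675 FPKM in saline 1 to 3, against 0.169, 0.727 and 0.742 FPKM in ISO 1 to 3, from 6 to 31 reads per library, while the other accessory subunits of the matrix arm were at 45.5 FPKM or more in every library. The length behind its FPKM was 4804 bases, against 1828 exonic bases in GENCODE vM21. Rps28, a ribosomal protein gene that lies 9 bases from it, was at 0.393 to 23.2 FPKM. Ndufaf8, a small assembly factor listed under the symbol 1810043H04Rik, had 37.4, 35.0 and 77.3 FPKM in saline, against 49.7, 38.9 and 13.0 FPKM in ISO. Its saline 3 was highest and its ISO 3 lowest, and the groups overlapped.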
